A study of Mus musculus with 123 samples.

Results

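The genes described here encode the proteins of the cytosolic ribosome, the particle that translates messenger RNA outside mitochondria. Members were the protein-coding rows of the count table whose symbol begins with Rpl or Rps and a number, together with Rplp0, Rplp1, Rplp2 and Rpsa. The stress-induced paralogue Rps27l and the Rps6k kinases were left out. The rule found 82 of the 29022 genes in the table, 51 of the large subunit and 31 of the small, on 19 chromosomes. A member had to be seen in at least 0.5 of the embryos of some stage to be tested, which 81 were. The exception was Rpl3l, the muscle form of Rpl3, with 32 unique molecular identifiers (UMIs, each marking 1 captured transcript) in all embryos together and a mean of 0.194 CPM (a gene's UMIs scaled to the total of its embryo).

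Each library was made from 1 mouse morula or 1 isolated inner cell mass (ICM), the inner cells of the blastocyst that give rise to the embryo proper, by sequencing transcript 3′ ends tagged with UMIs, and the libraries fell into 16 groups. The study asked how the transcription factors Oct4 (gene Pou5f1) and Sox2 shape the early embryo. In the Oct4 line, Pou5f1 flox/flox; Zp3-Cre females were mated with Pou5f1 +/mKO2 males, and in the Sox2 line Sox2 flox/flox; Zp3-Cre females with Sox2 +/EGFP males. Zp3-Cre acts in the growing oocyte, so every Ctrl and KO embryo lacked the maternal gene product. Ctrl embryos carried no reporter and kept the paternal allele, while KO embryos inherited the paternal null allele marked by a PGK-driven mKO2 or EGFP and were thus maternal-zygotic knockouts. A further class, MWT, is not spelled out in the sample labels, and the study speaks of wildtype embryos beside its maternal knockouts. Morulae were taken at E2.75, and early and late ICMs stood for E3.75 and E4.5. Females were superovulated, and the labels name B6C3F1 for every embryo. Embryos for ICMs were collected at E2.5, cultured in KSOM medium with 1 µM of the MEK inhibitor PD0325901, and stripped of their outer cells by immunosurgery, so stage, culture and dissection changed together. Each group held 8 embryos except Oct4 MWT morula and Sox2 MWT early ICM, with 7 each, and Oct4 MWT early ICM, with 5. Title and source name disagree on the stage of the ICMs of Oct4 MWT, and the title was used. The labels give the inhibitor for every ICM group except Oct4 MWT early ICM, whose source name and tissue read as morula. The labels do not tie embryos to litters or cultures, so each p-value measures the spread among these embryos only.

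Ribosomal protein genes are among the most heavily transcribed genes of any growing cell. Their proteins are built into the particle in nearly fixed proportions, so the genes are usually described as one coordinated set. Their messages begin with a run of pyrimidines, the terminal oligopyrimidine (TOP) motif, through which mTOR signalling controls how strongly they are translated. The oocyte stocks ribosomes and ribosomal protein messages, and the embryo replaces them with its own during cleavage. Several members have a close paralogue whose use is restricted to certain tissues, such as Rpl10l and Rpl39l in male germ cells and Rpl22l1 in early blood cells.

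Start sites of 8 members whose levels are described in detail further on show how strongly the pyrimidine run varies within the set. Each line gives 10 bases before and 20 bases from the RefSeq start on the transcript strand (5′ to 3′, build GRCm38.p6), with the longest run of C and T within it in capitals.
Rps23 (chr13:90923112-90923141, +): cggctgggcggggCTTCCCgcaatgccttg
Rps2 (chr17:24720053-24720082, +): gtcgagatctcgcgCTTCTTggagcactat
Rps26 (chr10:128626487-128626516, −): gcaagccgccggaTCCTCTTTCgagtcttg
Rpl39 (chrX:37085203-37085232, −): gctccgcctctagcgaCTTCTTCTaatcgc
Rpl39l (chr16:10170218-10170247, +): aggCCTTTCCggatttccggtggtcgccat
Rpl22l1 (chr3:28805498-28805527, +): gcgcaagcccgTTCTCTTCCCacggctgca
Rpl10 (chrX:74270806-74270835, +): tacagtggaagataggccgCCTatataagg
Rpl10l (chr12:66284382-66284411, −): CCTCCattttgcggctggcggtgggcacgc
In Rps23, Rps2, Rps26, Rpl39 and Rpl22l1 the run begins between base 2 and base 7 of the annotated transcript, and it reaches 9 bases in Rps26 and 10 in Rpl22l1. In Rpl39l and Rpl10l the longest run of the window lies before the annotated start, and in Rpl10 it is 3 bases long. RefSeq start windows matched 62 of the 82 members. A run of at least 8 consecutive C or T within 25 bases of the start, on the transcript strand, was present in 33 of their 73 windows (45.2%), against 6464 of 32851 windows (19.7%) of all genes. These counts describe annotated starts and do not show where transcription began in these embryos.

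Libraries held 525755 to 1344035 UMIs. Members took 16.8% of all UMIs in the series, and from 13.4% to 21.7% in single embryos. All 81 tested members were detected in every embryo, and 70 averaged over 1000 CPM in Ctrl embryos. Pou5f1 lay at 0 in 7 of 8 Oct4-KO morulae and in 7 of 8 Oct4-KO late ICMs, and reached at most 4.73 CPM in Oct4-KO early ICMs against 58.3 to 93.6 in Ctrl. Sox2 lay between 8.09 and 29.3 CPM in Sox2-KO late ICMs against 94.2 to 299 in Ctrl, whereas its level in Sox2-KO morulae, 0 to 3.32 CPM, touched that of Ctrl, 2.91 to 34.2. Markers of epiblast were present in ICMs, Nanog averaging 1041 CPM in Oct4 Ctrl late ICMs. Trophectoderm markers were present as well, and their sums are given beside the knockout results.

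The most abundant member by mean over the 6 Ctrl groups was Rplp1, a protein of the stalk that recruits translation factors, at 6904 CPM. Rps16 (4383 CPM), Rps12 (4147 CPM) and Rps2 (3881 CPM), all of the small subunit, followed. At the other end stood Rpl7l1 (130 CPM), Rpl10l (156 CPM), Rpl13a (245 CPM), Rpl22l1 (427 CPM) and Rpl39l (462 CPM), of which all but Rpl13a are paralogues of another member. Each UMI stands for 1 captured 3′ end, so these levels need no correction for length. The 3′ end is also where processed pseudogenes resemble their parents, and 50 members share at least 1 stretch of 75 bases near the 3′ end with another annotated gene, 32 of them over at least 50% of the stretches. How reads with several matches were assigned, and whether strand was used, is not given in the sources used here, and levels of those members are uncertain to that extent.

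Summed over all members, the share of UMIs followed opposite courses in the 2 lines from morula to early ICM. In Oct4 Ctrl embryos it was 16.8% ± 0.548 (SD, n = 8) in morulae, 15.1% ± 0.868 in early ICMs and 18.5% ± 1.87 in late ICMs. In Sox2 Ctrl embryos it was 14.6% ± 0.666, 17.5% ± 1.54 and 18.3% ± 0.596 at the same stages. The ranges of Oct4 Ctrl morulae (16.2% to 17.6%) and Sox2 Ctrl morulae (13.4% to 15.7%) did not overlap. Nor did the share of mitochondrial transcripts in the same morulae, 4.47% to 6.33% and 2.87% to 4.46%, whose part in the line difference was not tested. KO embryos lay near the Ctrl of their line and stage, with 17.3%, 15.6% and 17.8% in the Oct4 line and 14.4%, 18.2% and 19.4% in the Sox2 line. Oct4 MWT embryos averaged 17.4%, 15.2% and 16.5%. The ratio of large to small subunit UMIs was 1.37, 1.37 and 1.21 over the stages in Oct4 Ctrl and 1.41, 1.25 and 1.20 in Sox2 Ctrl. It was lowest in late ICMs of both lines. No test was run on these sums. In libraries made from many cells like these, fewer cells of a type and less RNA per cell cannot be told apart.

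**Figure D1:**
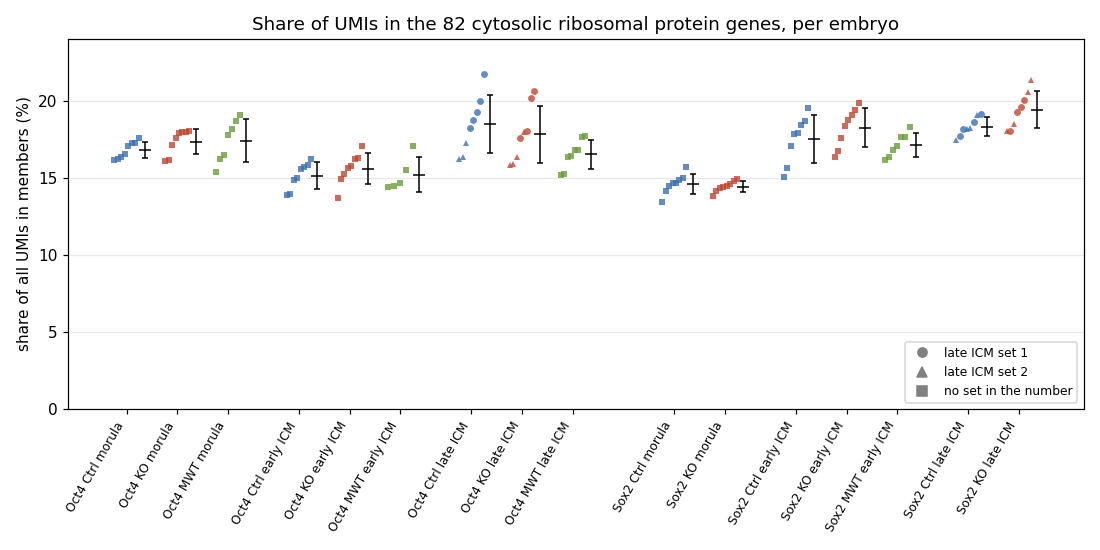
Share of all UMIs that fell in the 82 ribosomal protein genes (percent, from 0) in each embryo of the 16 groups, with the mean and SD of each group. Marker shape separates the label sets of late ICMs. Sox2 Ctrl and KO morulae lie lowest, with means of 14.6% and 14.4%, and the Oct4 line dips at early ICM (15.1% in Ctrl) where the Sox2 line does not (17.5%).

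The step from morula to early ICM in Ctrl embryos asks how these messages are set as the ICM forms. Adjusted p-values here and below come from edgeR's quasi-likelihood test with Benjamini-Hochberg adjustment over all genes tested, and values with ± are log2 fold changes with their standard error. In the Oct4 line 42 members fell and 11 rose, 28 did not pass, and the median log2 fold change was −0.27 against 0.00 over all genes. Over all genes tested 23.8% rose and 24.3% fell at this step. In the Sox2 line the count ran the other way, with 43 members higher and 16 lower and a median of 0.24 against 0.03, where 26.6% of all genes rose and 25.2% fell. The Oct4 median was −0.17 with scaling by total UMIs, and the Sox2 median was 0.14 over the members without a named pseudogene. Members whose embryos did not overlap between the stages numbered 30 in the Oct4 line and 38 in the Sox2 line, where 16.4% and 18.6% of all genes had no overlap. At a fold change of at least 2 (log2 of 1), 4 members fell in the Oct4 line, where 29.0% of all genes passed in either direction, and in the Sox2 line 5 rose and 1 fell, where 31.9% of all genes passed.

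Among the 4 was Rpl39l, the paralogue of Rpl39 at the exit tunnel of the large subunit. Its lowest, median and highest levels were 689, 956 and 1091 CPM in Oct4 Ctrl morulae and 151, 236 and 298 CPM in early ICMs. The groups did not overlap, and the fall was −2.10 ± 0.18 (adjusted p = 3.5e-18). Oct4-KO embryos lost Rpl39l by −1.49 and Oct4 MWT embryos by −2.35 at the same step. In Sox2 Ctrl embryos Rpl39l started low, with 268, 330 and 379 CPM in morulae and 305, 419 and 617 CPM in early ICMs, and its change of 0.33 did not pass (adjusted p = 0.0966). The difference between the lines was itself past the threshold, at −2.43 ± 0.25 (adjusted p = 4.1e-14). Its parent Rpl39 moved likewise but less, from 1247, 1853 and 2163 CPM to 561, 886 and 1063 CPM in Oct4 Ctrl (−1.12 ± 0.18, adjusted p = 1.0e-07), again with no overlap, and rose by 0.50 in Sox2 Ctrl (adjusted p = 0.0129).

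Rps23, a small-subunit protein at the decoding centre, had 1057, 1184 and 1303 CPM in Oct4 Ctrl morulae and 432, 551 and 724 CPM in early ICMs. Every early ICM lay below every morula (−1.14 ± 0.12, adjusted p = 3.6e-13). In Sox2 Ctrl embryos Rps23 went from 404, 663 and 915 CPM to 808, 1234 and 1378 CPM, a rise of 0.77 (adjusted p = 1.0e-07) with a slight overlap. Rpl36, of the large subunit, had 1624, 1735 and 2072 CPM in Oct4 Ctrl morulae and 740, 975 and 1069 CPM in early ICMs (−1.03, adjusted p = 1.3e-11). In the Sox2 line Rpl36 rose instead, from 530, 639 and 810 CPM to 1177, 1518 and 1877 CPM (1.17 ± 0.12, adjusted p = 7.0e-14). Neither pair of groups overlapped for Rpl36.

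The stalk proteins joined the members that fell in the Oct4 line. Rplp1 fell by 0.93 and Rplp0, the stalk base, by 0.84 on the log2 scale, while Rplp2 fell by 0.30. In Sox2 Ctrl embryos all 3 rose, Rplp1 by 0.57, Rplp0 by 0.23 and Rplp2 by 0.81. Rpl5 and Rpl11, which escort the small ribosomal RNA of the large subunit and restrain Mdm2 when unassembled, fell less in the Oct4 line (−0.20 and −0.25). Rpl11 fell by 0.85 in the Sox2 line (adjusted p = 2.2e-12), whereas Rpl5 stood at −0.03 and did not pass.

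A smaller set ran against the rest. Rpl23a, a large-subunit protein near the exit tunnel, had 2421, 2634 and 3352 CPM in Oct4 Ctrl morulae and 4222, 4653 and 5476 CPM in early ICMs (0.71 ± 0.10, adjusted p = 5.7e-09). In Sox2 Ctrl it fell from 3701, 3914 and 4137 CPM to 1773, 2001 and 2182 CPM (−1.05 ± 0.10, adjusted p = 2.0e-15). Neither comparison overlapped, and the lines differed by 1.76 ± 0.14. Rps6, the small-subunit protein phosphorylated downstream of mTOR, rose by 0.51 in the Oct4 line with no overlap (adjusted p = 1.1e-06) and did not pass in the Sox2 line (−0.18).

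Other members with a particular role took intermediate courses. Rps27a, which is made as a fusion with ubiquitin, fell by 0.31 at this step in Oct4 Ctrl and rose by 0.64 in Sox2 Ctrl. Rpl38, known for its part in the translation of Hox messages, stood at 0.10 in Oct4 Ctrl (adjusted p = 0.52) and rose by 0.42 in Sox2 Ctrl (adjusted p = 0.0029). Rpl41, the smallest ribosomal protein, fell by 0.27 in Oct4 Ctrl and stood at 0.01 in Sox2 Ctrl. Rpl7l1, a paralogue of Rpl7 with a part in subunit assembly, did not pass in either line (−0.24 and −0.20).

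Rpl36, Rpl10l, Rpl10 and Rps29 were among the rises past a 2-fold change in the Sox2 line. Rps29, of the small subunit, had 895, 1088 and 1377 CPM in morulae and 2355, 2629 and 3117 CPM in early ICMs, with no overlap (1.20, adjusted p = 2.7e-15). Rpl10, the protein whose late loading completes the large subunit, had 358, 402 and 647 CPM and then 812, 1300 and 1725 CPM (1.32 ± 0.24, adjusted p = 1.2e-06). Its autosomal paralogue Rpl10l had 34.1, 54.3 and 177 CPM in morulae and 168, 252 and 293 CPM in early ICMs (1.5 ± 0.26, adjusted p = 9.8e-07). For Rpl10l the highest morula lay above the lowest early ICM.

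From early to late ICM the direction in the Oct4 line was the opposite. The MEK inhibitor of the culture is used to suppress primitive endoderm. In Oct4 Ctrl embryos 41 members rose and 11 fell, with a median of 0.31 against 0.03 over all genes, of which 17.2% rose and 15.2% fell. That median was 0.46 with the late ICMs of label set 1 alone and 0.04 with those of set 2 alone, the sets being described further on, and 0.12 over the members without a named pseudogene. Past a 2-fold change were 10 higher members and 1 lower, where 15.6% of all genes passed in either direction, and with set 2 alone 1 was higher and 1 lower. The 10 were Rps23, Rpl39, Rpl36, Rps28, Rplp1, Rps2, Rpsa, Rplp2, Rpl39l and Rps13, with log2 fold changes of 1.53, 1.23, 1.17, 1.13, 1.11, 1.11, 1.10, 1.09, 1.09 and 1.07. Rpl23a fell by 1.01. Groups did not overlap for 32 members, as for 6.42% of all genes. Rps23 reached 1090, 1596 and 2013 CPM in late ICMs (1.53 ± 0.13, adjusted p = 5.7e-18), so that its late ICMs spanned a range that began within the range of morulae. Rpl39l recovered only in part, to 360, 429 and 679 CPM (adjusted p = 3.2e-07), with every late ICM above every early ICM. Rpl23a returned to 1976, 2229 and 2916 CPM (adjusted p = 9.3e-14). Rps26, a small-subunit protein at the messenger RNA exit, fell from 3957, 4197 and 5027 CPM to 1803, 2506 and 2803 CPM (−0.82 ± 0.11, adjusted p = 3.3e-09), with no overlap.

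In the Sox2 line the same step changed few members. There 6 rose and 5 fell with a median of 0.03 against 0.01, where 3.36% of all genes rose and 3.85% fell. No member passed a 2-fold change, which 2.90% of all genes did, and groups were apart for 4 members, as for 0.541% of all genes. Without the detection filter 4 rose and 2 fell. Rps23 rose further, to 1557, 1721 and 1887 CPM (0.52, adjusted p = 0.0040), and Rps28, of the small subunit, by 0.45. Rpl10 fell by 0.70 (adjusted p = 0.0475) and Rpl3, at the peptidyl transferase centre, by 0.35 (adjusted p = 0.0063). With the term for Y-linked transcripts described further on, Rpl10 stood at −0.39.

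**Figure D2:**
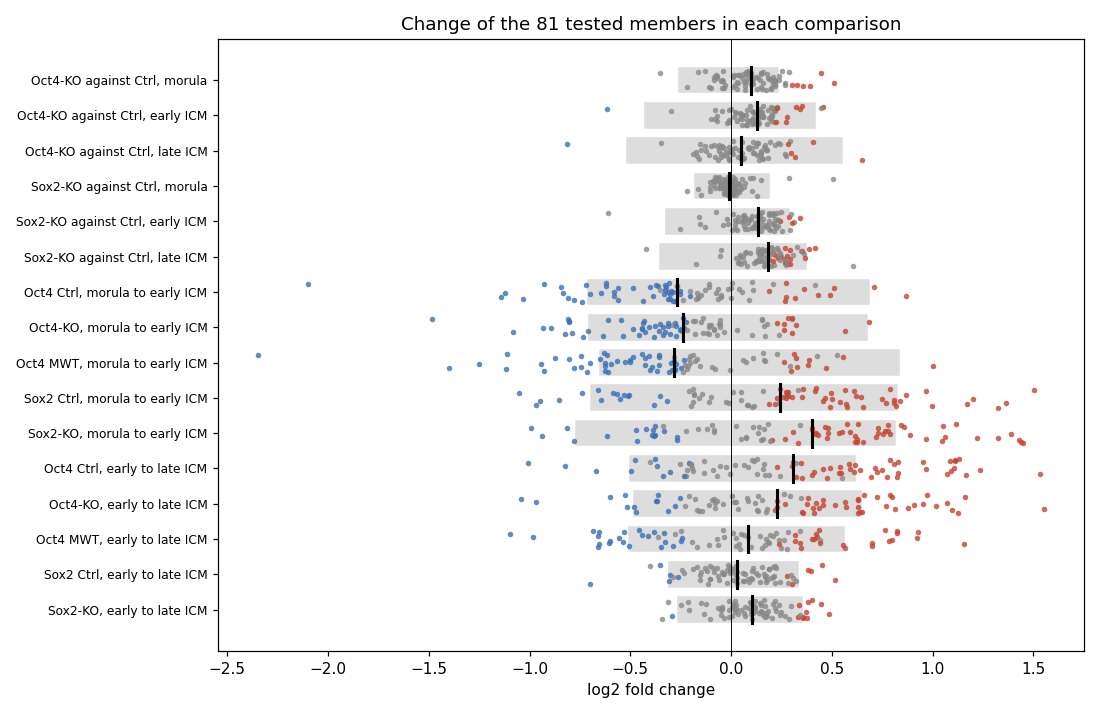
Log2 fold change (horizontal axis) of each of the 81 tested members in 16 comparisons, with members past an adjusted p of 0.05 in red (higher) or blue (lower) and others in grey. The black bar is the median over members and the grey box the interquartile range over all genes tested. Oct4 Ctrl, morula to early ICM, has 42 lower members and Sox2 Ctrl 43 higher, while KO comparisons stay close to 0.

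The same steps could be read in embryos that share none of the Ctrl libraries. In Oct4-KO embryos 9 members rose and 42 fell from morula to early ICM (median −0.24), where 21.7% and 23.4% of all genes did, and 39 rose and 13 fell from early to late ICM (median 0.23), where 32.5% of all genes were called in either direction. The latter median was 0.40 with the late ICMs of label set 1 alone and 0.04 with those of set 2 alone. In Oct4 MWT embryos 10 rose and 46 fell at the first step (median −0.28, background 22.7% and 20.2%), and 23 rose and 23 fell at the second (median 0.08, background 12.9% and 13.1%). In Sox2-KO embryos 45 rose and 16 fell at the first step (median 0.40, background 26.0% in each direction), and 10 rose and 1 fell at the second (median 0.10, background 1.93% and 2.57%). That last count of 11 became 3 without the detection filter, 7 with thinned counts and 6 with set 1 alone. With scaling by total UMIs the first-step medians were −0.16 in Oct4-KO and −0.15 in Oct4 MWT. As a description across the 81 members, with no test since members are not independent, the first step in Oct4 Ctrl had a Pearson r of 0.96 with Oct4 MWT and 0.91 with Oct4-KO. Between Sox2 Ctrl and Sox2-KO r was 0.95. Between Oct4 Ctrl and Sox2 Ctrl r was −0.33, and 51 of the 81 members had opposite signs.

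Tested as a difference of steps, Oct4 Ctrl minus Sox2 Ctrl, 59 members passed at morula to early ICM, 15 with a positive and 44 with a negative difference, where 26.1% of all genes passed in either direction. At early to late ICM 41 passed, 35 positive and 6 negative, against 6.79% and 6.25% of all genes. With late ICMs of set 2 alone 16 were positive and 9 negative, with a median of 0.0024. Compared directly at each stage, Oct4 Ctrl morulae had 36 members higher and 15 lower than Sox2 Ctrl morulae, where 10.2% of all genes were higher and 10.8% lower. Among early ICMs 12 were higher and 39 lower (background 12.1% and 13.8%), and among late ICMs 4 were higher and 1 lower (background 2.96% and 2.78%). The direction among late ICMs turned with the label set, since set 1 alone gave 8 higher and none lower and set 2 alone none higher and 9 lower by edgeR. Scaling by total UMIs gave 4 higher and 5 lower. In morulae the line differences were largest for Rps29 (1.59), Rpl39l (1.52) and Rpl36 (1.47), and on the other side for Rps3a1 (−0.97). In early ICMs they were largest for Rpl23a (1.24) and Rps2 (−1.22). In late ICMs Rpsa (0.51) and Rpl13a (−0.50) stood at the ends. Line and any batch of collection or library preparation cannot be told apart here.

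**Figure D3:**
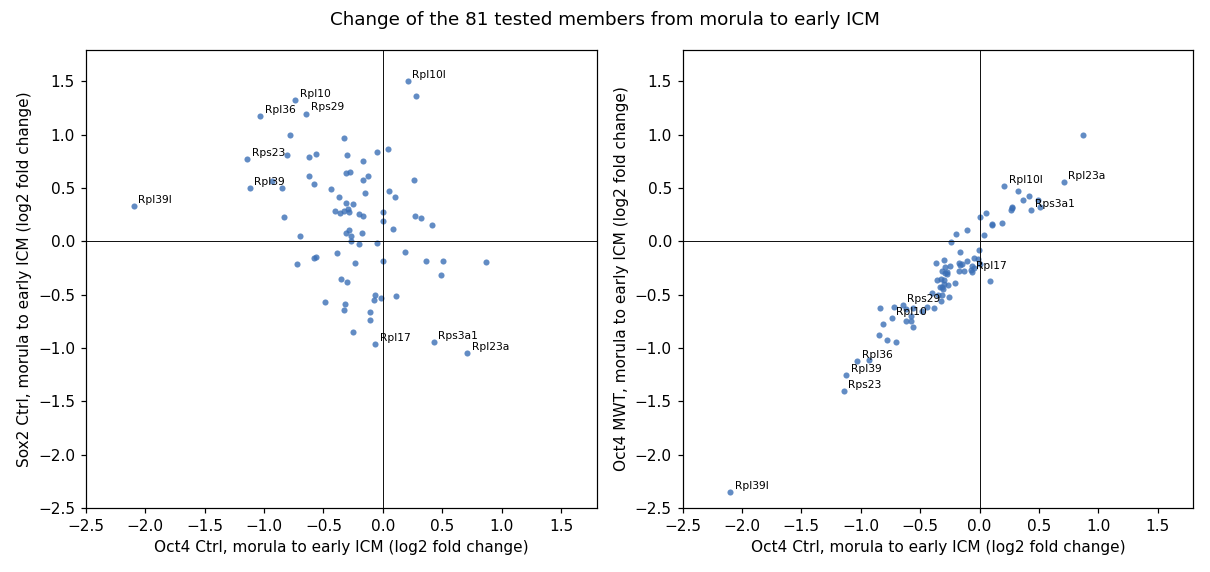
Log2 fold change from morula to early ICM of the 81 members, Oct4 Ctrl on the horizontal axis against Sox2 Ctrl (left) and Oct4 MWT (right). Points on the right follow the diagonal (r = 0.96) and on the left they do not (r = −0.33).

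Members with short transcripts had medians further from 0 than long ones at both stage steps of Oct4 Ctrl. The 19 members with transcripts under 600 bases had a median of −0.40 at morula to early ICM and of 0.58 at early to late ICM, and the 28 over 1000 bases had −0.19 and 0.18. The 702 other genes with short transcripts had −0.21 and 0.18 at these steps, and across the 81 members Spearman's rho of length with the change was 0.21 and −0.13. In the Sox2 line the medians of short and long members were 0.36 and 0.14 at the first step, and other short genes had 0.35. In Oct4-KO embryos the medians of short and long members at the first step were −0.25 and −0.26. Between Oct4 and Sox2 Ctrl morulae the medians were 0.49 and −0.01, and the other short genes had 0.43. The part of transcript length in the stage and line differences was not tested.

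**Figure D4:**
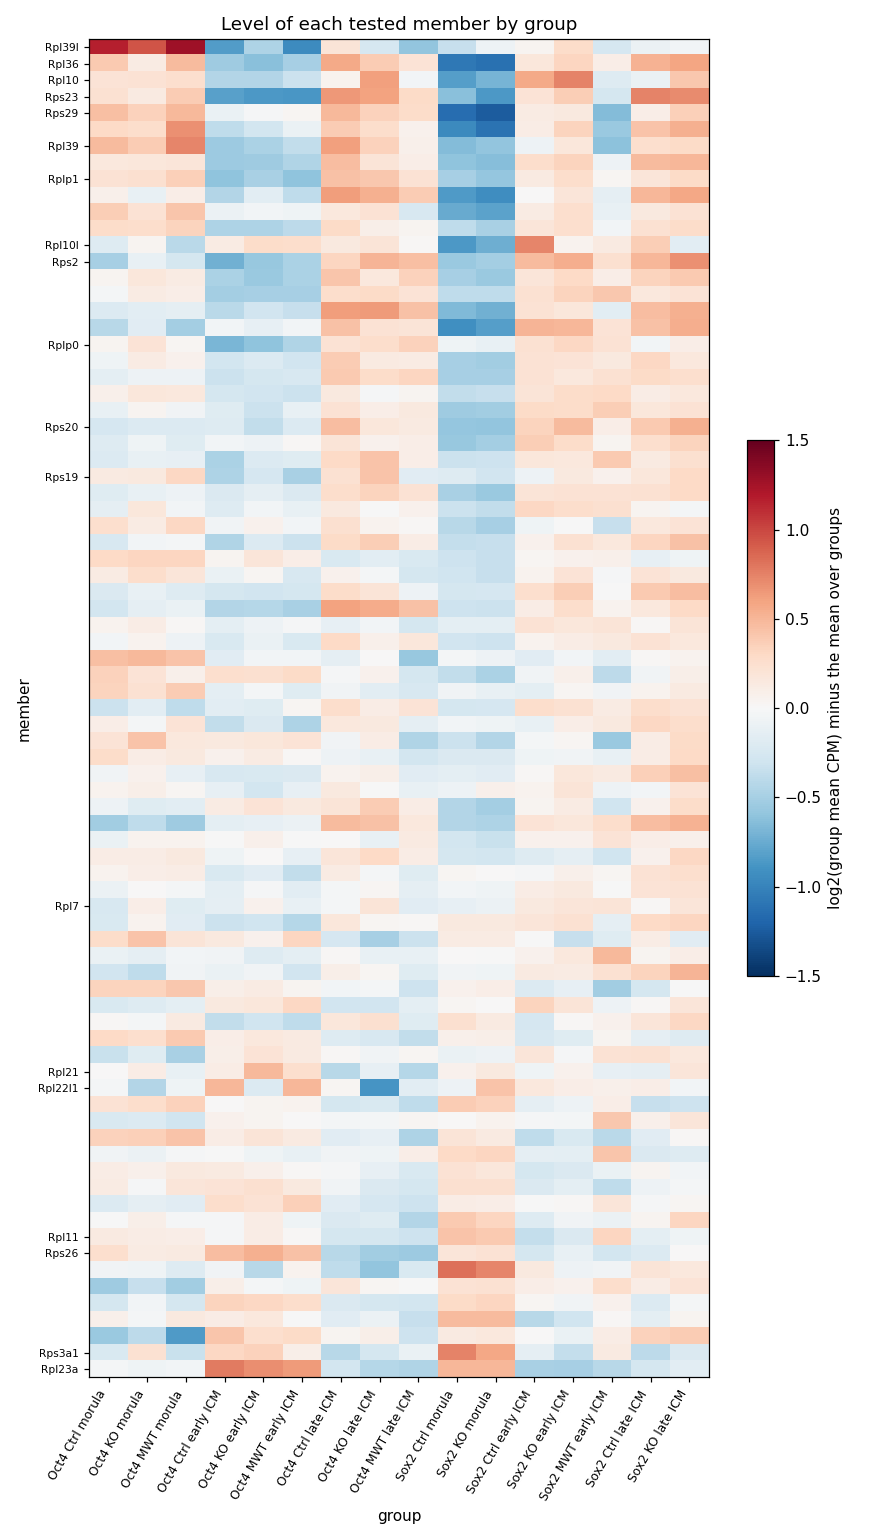
Log2 of the group mean CPM minus its mean over the 16 groups (colour, from −1.5 to 1.5) for the 81 tested members, with some of the described members labelled. Rpl39l is high in the Oct4 morulae, with a mean near its median of 956 CPM in Ctrl, and Rpl23a is high in the Oct4 early ICMs and Sox2 morulae.

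Loss of Oct4 moved few members and by little. In Oct4-KO morulae 6 members were higher than in Ctrl and none was lower, where 0.562% of all genes were higher and 0.904% lower. Without the detection filter 3 were higher and none lower, and in the same-numbered embryos alone 1 was higher and 2 were lower (median 0.0190). No member reached a 2-fold change, as 0.804% of all genes did. Rps2, at the entry of the messenger RNA channel, had 2502, 2698 and 2991 CPM in Ctrl and 3307, 3568 and 4019 CPM in KO morulae. Every KO morula lay above every Ctrl morula (0.45 ± 0.09, adjusted p = 0.00062). The same held for Rpl7, a large-subunit protein, with 1486, 1548 and 1703 CPM in Ctrl and 1867, 1948 and 2196 CPM in KO (0.39 ± 0.08, adjusted p = 0.0011). Rps3a1 (0.51), Rps7 (0.36) and Rpl5 (0.33) were among the others. The median of the 81 members was 0.10 against 0.01 over all genes, and 23 members passed an unadjusted p of 0.05, as 12.1% of all genes did. Rps3a1 has a retained pseudogene row, Rps3a3, whose level differed the other way: its median was 1419 CPM in Ctrl and 937 CPM in KO morulae, and the sum of both rows had a median of 2649 CPM in Ctrl and 3016 CPM in KO. The part of read sharing between the 2 rows was not tested.

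In Oct4-KO early ICMs 9 members were higher and 1 lower, with a median of 0.13 and background shares of 10.1% higher, 10.9% lower and 10.9% past a 2-fold change, which no member passed. Rpl21, of the large subunit, rose from 703, 882 and 1075 CPM in Ctrl to 911, 1154 and 1420 CPM in KO (0.46 ± 0.14, adjusted p = 0.0097), with overlap. Rps28 (0.35), Rps10 (0.34), Rps18 (0.32), Rps19 (0.28), Rpl7 (0.27), Rps2 (0.23), Rps7 (0.22) and Rpl34 (0.21) were the others. When each of the 16 embryos was left out in turn, Rps2 lost its call in 11 refits and Rps28 in 9. Rpl22l1 was the member that fell. The count of members past the threshold was 5 with scaling by total UMIs, 16 by DESeq2 and 3 without the detection filter. In the same-numbered embryos alone it was 3, all of them lower, and Rps2 stood at −0.16. In Oct4-KO late ICMs 5 members were higher and 1 lower, with a median of 0.05, where 16.0% of all genes were higher, 15.7% lower and 18.1% past a 2-fold change, again passed by no member. The share of members called was below that background in both directions. The 5 were Rpl10, Rpl21 (0.41, adjusted p = 0.0168), Rpl7, Rps19 and Rps2. Rpl7 had 1403, 1883 and 2088 CPM in Ctrl and 1864, 2135 and 2369 CPM in KO (0.32 ± 0.08, adjusted p = 0.00079). Rps19, the small-subunit protein mutated in Diamond-Blackfan anaemia, rose by 0.30 (adjusted p = 0.0036) and Rps2 by 0.28 (adjusted p = 0.0075). Scaled by total UMIs, the member median in Oct4-KO late ICMs turned to −0.05, beside a shift of the median of all genes to −0.10, and 3 members were higher and 10 lower. Leaving out single embryos gave 5 to 17 members in early ICMs (17 without KO embryo 1) and 4 to 13 in late ICMs (13 without Ctrl embryo 1-9), where Rpl21 lost its call in 6 refits and Rpl10 in 5.

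Rpl22l1 is the paralogue that can take the place of Rpl22 in the large subunit. It was the only member called lower in Oct4-KO against Ctrl in the main fit, and alternatives with other members lower are given above. In morulae its levels were 290, 402 and 492 CPM in Ctrl and 167, 268 and 492 CPM in KO (−0.35, adjusted p = 0.53). In early ICMs they were 416, 541 and 703 CPM in Ctrl and 188, 322 and 567 CPM in KO (−0.62 ± 0.21, adjusted p = 0.0234). In late ICMs they were 262, 407 and 518 CPM in Ctrl and 113, 215 and 287 CPM in KO. There each of the 8 KO values was under the median of Ctrl, with a slight overlap of the groups (−0.82 ± 0.21, adjusted p = 0.00146). Rpl22 itself stood at 0.15 in late ICMs (adjusted p = 0.255). In Sox2-KO late ICMs Rpl22l1 had 268, 393 and 463 CPM against 293, 419 and 613 CPM in Ctrl (−0.05, adjusted p = 0.93). The difference between the KO effects, −0.77 ± 0.30, did not pass (adjusted p = 0.0911).

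Loss of Sox2 left morulae without a called member, with a median of −0.01 and 0.00712% of all genes called in either direction. In Sox2-KO early ICMs 4 members were higher and none lower (median 0.14), where 3.22% of all genes were higher and 3.82% lower. Among them were Rps24 (0.34 ± 0.11, adjusted p = 0.0386), Rps19 (0.30 ± 0.08, adjusted p = 0.0148) and Rpl35a (0.28). Scaling by total UMIs and thinned counts each left 1 member called, and the fit without the detection filter left none. Leaving out single embryos gave 1 to 6 members there, and 1 without each of 8 of the embryos, with Rps24 losing its call in 8 refits. In Sox2-KO late ICMs 15 members were higher and none lower, with a median of 0.18 against 0.00, where 6.96% of all genes were higher and 6.81% lower. A 2-fold change, passed by 3.27% of all genes in early and 6.95% in late ICMs, was reached by no member. Rps3, a small-subunit protein that also acts in DNA repair, had 1776, 2217 and 2370 CPM in Ctrl and 2309, 2633 and 2943 CPM in KO (0.39 ± 0.09, adjusted p = 0.00195). The ranges overlapped only between 2309 and 2370 CPM. Rpl21 (0.41), Rps29 (0.37), Rpl41 (0.35), Rps2 (0.29), Rpl22 (0.29), Rpl7 (0.27), Rplp0 (0.24) and Rps19 (0.23) were among the others. Of the 81 members 77 had a fold change above 0, as did 50.1% of all genes, and 39 passed an unadjusted p of 0.05, as did 26.4%. With scaling by total UMIs the median was 0.07, beside a shift of the median of all genes to −0.09, and 1 member passed. In the first of the label sets of late ICMs alone none did. Leaving out single embryos gave 6 to 20, the fewest without KO embryo 1-1, and Rps19 lost its call in 10 of the 16 refits, Rplp0 in 7 and Rpl21 in 6.

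Marker genes of other cell types moved with the KO groups. The summed level of 10 trophectoderm markers was 3588 ± 757 CPM (SD, n = 8) in Oct4-KO late ICMs and 1037 ± 460 CPM in Ctrl, with ranges of 2258 to 4825 and 504 to 1818 CPM. Epiblast markers summed to 837 CPM against 3546 CPM and primitive endoderm markers to 1341 CPM against 720 CPM. Of the 10 endoderm markers 3 were higher in KO, Dab2 (699 CPM against 155 CPM), Gata6 (402 CPM against 182 CPM) and Col4a1 (187 CPM against 141 CPM), and 7 were lower, with Sox17 at 0.725 CPM against 78.2 CPM. In Oct4-KO early ICMs trophectoderm markers summed to 1200 CPM against 794 CPM in Ctrl, epiblast markers to 1525 CPM against 2421 CPM and endoderm markers to 1081 CPM against 779 CPM. Of the 10 trophectoderm markers 8 were higher and 2 lower, Elf5 and Tfap2c. Among epiblast markers Nanog (907 CPM against 773 CPM) and Sox2 (157 CPM against 133 CPM) were higher and the others lower. There 2 of the 10 endoderm markers were higher, Dab2 (406 CPM against 77.7 CPM) and Col4a1 (237 CPM against 152 CPM), and 7 were lower. Mitochondrial transcripts took 6.10% of UMIs in Oct4-KO early ICMs against 5.12% in Ctrl, and 4.34% against 5.58% in late ICMs. In the Sox2 line trophectoderm markers summed to 1685 CPM against 565 CPM in early ICMs with 9 of the 10 higher, and to 1835 CPM against 1277 CPM in late ICMs, with 7 higher and 3 lower. In late ICMs the embryos overlapped, at 1018 to 3219 CPM and 316 to 3609 CPM, and Id2 alone stood at 667 CPM against 232 CPM, while Krt18 (250 CPM against 353 CPM) was lower. Epiblast markers summed to 1731 CPM against 3430 CPM in Sox2-KO late ICMs. Every marker of that list was lower, among them Sox2, the deleted gene (16.1 CPM against 183 CPM), and by little Nanog (981 CPM against 1006 CPM). The part of these shifts in the members' differences was not tested.

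Whether the lines responded differently was tested as the Oct4-KO effect minus the Sox2-KO effect. No member passed in early ICMs by edgeR, where 8.12% of all genes did. In late ICMs 2 passed, both with the Oct4-KO effect lower, where 8.67% of all genes passed. Rps20, a small-subunit protein, had 3370, 4545 and 5264 CPM in Oct4 Ctrl, 2812, 3524 and 5564 CPM in Oct4-KO, 3883, 4210 and 5288 CPM in Sox2 Ctrl and 4018, 4536 and 6246 CPM in Sox2-KO late ICMs. Its KO effects were −0.19 and 0.24, and they differed by −0.43 ± 0.13 (adjusted p = 0.0263). All its ranges overlapped, and neither of the 2 calls held in every alternative listed further on.

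MWT embryos were compared with Ctrl to see what the deletion in the oocyte, which Ctrl and KO share, goes with. No member was called in Oct4 MWT morulae, where 0.0287% of all genes were higher and 0.0503% lower by edgeR. None was called in early ICMs, with background shares of 0.251% and 0.388%. In late ICMs 25 members were lower and none higher (median −0.26), where 0.496% of all genes were higher and 1.08% lower. Rpl39l had 188, 243 and 414 CPM in MWT against 360, 429 and 679 CPM in Ctrl (−0.87 ± 0.18, adjusted p = 0.0016), Rpl31 stood at −0.54 and Rps19 at −0.48 (adjusted p = 0.0005). The count was 16 with scaling by total UMIs, 49 with Ctrl embryos of label set 1 alone and 0 (median −0.000290) by edgeR with those of set 2 alone. Primitive endoderm markers summed to 258 CPM in these MWT ICMs against 720 CPM in Ctrl, with all 10 lower and Sox17 at 1.85 CPM against 78.2 CPM, and their part in the members' differences was not tested. The stage labels of these MWT ICMs disagree, as stated above. In Sox2 MWT early ICMs 6 members were higher and 10 lower (background 3.30% and 3.02%). Endoderm markers summed there to 1225 CPM against 696 CPM in Ctrl, with 5 of 10 higher and 4 lower, and mitochondrial transcripts took 3.15% to 4.34% of UMIs in MWT and 4.42% to 5.24% in Ctrl, with no overlap. The part of either was not tested. Rps29 had 1258, 1618 and 1738 CPM in MWT and 2355, 2629 and 3117 CPM in Ctrl (−0.76 ± 0.13, adjusted p = 1.1e-05). Rpl11 had 2558, 2649 and 3013 CPM in MWT and 1535, 1739 and 1864 CPM in Ctrl (0.69 ± 0.10, adjusted p = 4.8e-07). Rpl15, of the large subunit, had 1589, 1775 and 2004 CPM in MWT and 1037, 1197 and 1388 CPM in Ctrl (0.57, adjusted p = 1.2e-06). None of Rps29, Rpl11 and Rpl15 overlapped between the groups.

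Late ICMs carry a first number, 1 or 2, in their labels, read here as a set, and in the Oct4 line set 2 lay lower. In Oct4 Ctrl the members' share was 18.2% to 21.7% in the 5 embryos of set 1 and 16.2% to 17.3% in the 3 of set 2. In Oct4-KO it was 17.6% to 20.6% and 15.8% to 17.9% with 4 embryos in each, so that the sets were apart in Ctrl and overlapped slightly in KO. In the Sox2 line the sets overlapped, at 17.7% to 19.2% and 17.5% to 19% in Ctrl and 18% to 20.1% and 18% to 21.3% in KO. Set 2 against set 1 had 25 members lower and none higher in Oct4 Ctrl (background 0.420% higher and 1.00% lower) and 27 lower and none higher in Oct4-KO (0.847% and 1.27%). It had 5 lower and none higher in Sox2 Ctrl (0.363% and 0.491%) and no call by edgeR in Sox2-KO (0.178% and 0.0712%). Trophectoderm markers averaged 759 CPM in set 1 and 1500 CPM in set 2 of Oct4 Ctrl, 3624 and 3551 CPM in Oct4-KO, 1389 and 1164 CPM in Sox2 Ctrl and 2458 and 1212 CPM in Sox2-KO. Their part in the set differences was not tested. What the sets stand for is not given in the labels.

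Spread between embryos of a group was small for most members, with a median SD of 0.161 on the log2 scale over the 81. It was larger for Rpl10l (0.534), Rpl10 (0.442), Rpl22l1 (0.410), Rpl39l (0.353), Rpl39 (0.351) and Rps4x (0.345). Of these, Rpl10, Rpl39 and Rps4x lie on the X chromosome. Xist RNA takes part in silencing an X chromosome in female cells, and how far it was silenced in these embryos was not tested. Embryos fell into 58 with Y-linked transcripts (70.5 to 263 CPM summed over Y-linked genes, Xist 0 to 48.9 CPM) and 65 without (0 to 6.72 CPM, Xist 45.5 to 1563 CPM). Rpl10 was higher on average in the embryos without Y-linked transcripts in 16 of 16 groups, with a median ratio of 1.77 (1.19 to 2.02), and the embryos did not overlap in 15 of them. Rps4x, of the small subunit, had a median ratio of 1.54, higher in 16 groups and apart in 14. Rpl36a had 1.32, higher in 16 and apart in 11, and Rpl39 had 1.32, higher in 14 and apart in 10. For the 77 autosomal members the median ratio over groups lay between 0.924 and 1.08. No test was run on this split, which was made after the spread of Rpl10 was seen.

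**Figure D5:**
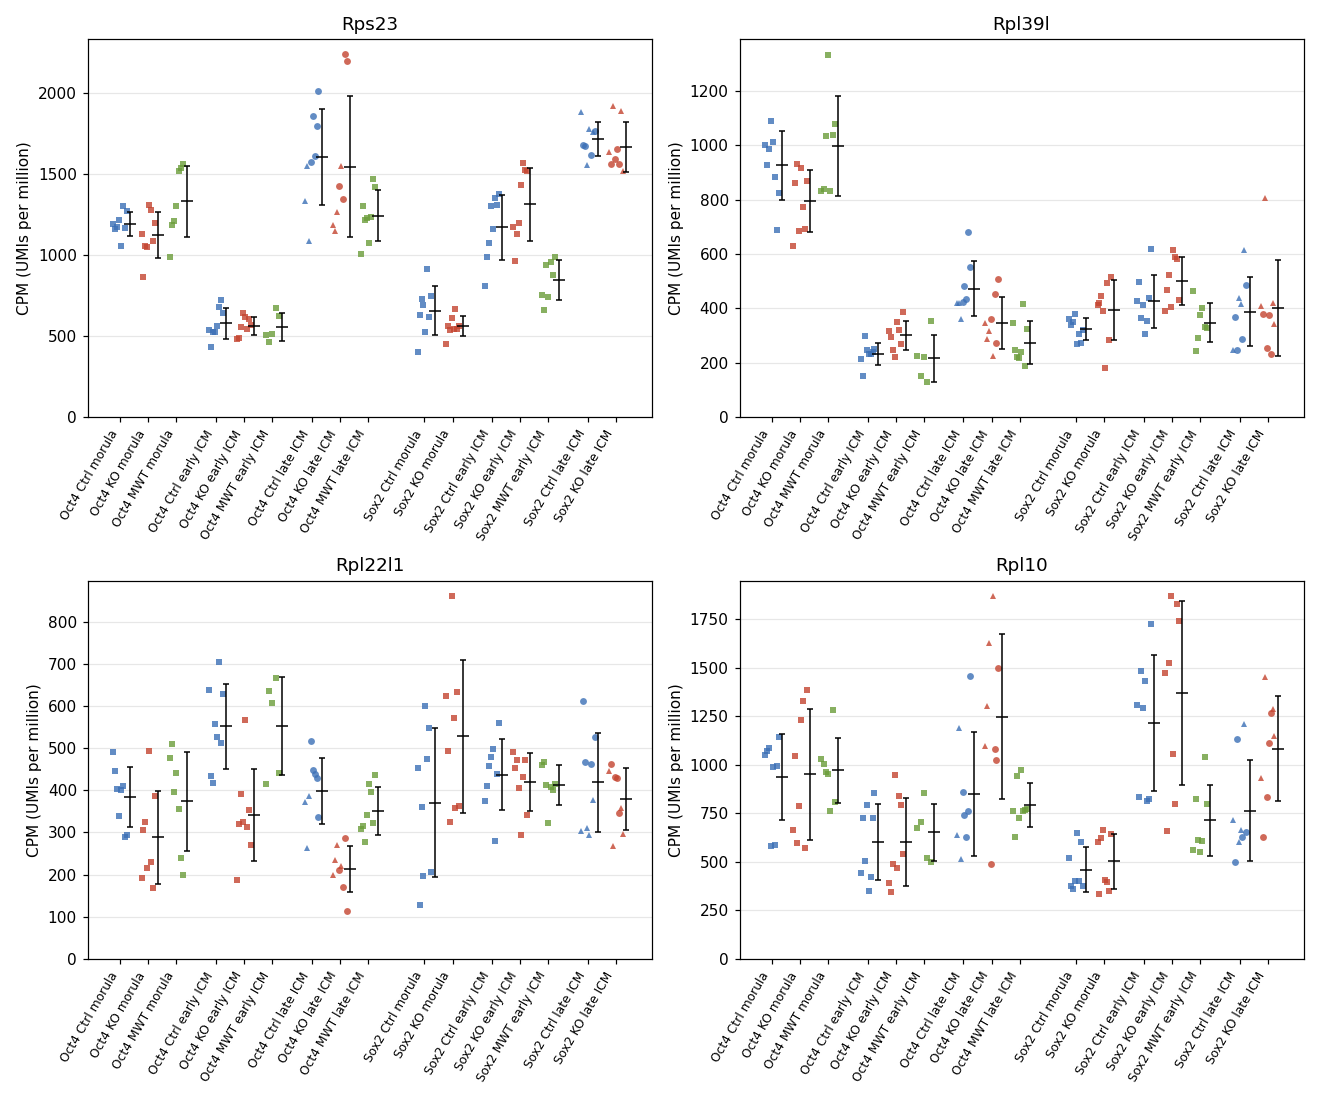
CPM in each embryo of the 16 groups, with group mean and SD, for Rps23, Rpl39l, Rpl22l1 and Rpl10. Rps23 and Rpl39l drop at early ICM in the Oct4 line, Rpl22l1 is lowest in Oct4-KO late ICMs (113 to 287 CPM), and Rpl10 spreads widely within groups.

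The split bears on the KO values of Rpl10. In Oct4 Ctrl late ICMs 5 embryos had Y-linked transcripts and 3 did not, and in Oct4-KO 2 did and 6 did not. Rpl10 had 515, 751 and 1456 CPM in Ctrl and 489, 1198 and 1867 CPM in KO late ICMs (0.65 ± 0.23, adjusted p = 0.0239), with wide overlap. With the presence of Y-linked transcripts as a term of the fit the difference was 0.34 (adjusted p = 0.0124). In Sox2-KO late ICMs Rpl10 stood at 0.61 (adjusted p = 0.0679), where 6 of 8 Ctrl and 3 of 8 KO embryos had Y-linked transcripts. Its rise from morula to early ICM in Sox2 Ctrl was 1.10 with that term and its fall at the next step −0.39 (adjusted p = 0.0193).

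Other genes of the pathway were counted by list. For every list the shares of all genes higher and lower were 23.8% and 24.3% at morula to early ICM and 17.2% and 15.2% at early to late ICM in Oct4 Ctrl, and 26.6% and 25.2% and then 3.36% and 3.85% in Sox2 Ctrl. They were 16.0% and 15.7% in Oct4-KO late ICMs and 6.96% and 6.81% in those of Sox2-KO. Ribosome biogenesis factors, which process ribosomal RNA and assemble subunits, had 11 higher and 29 lower of 60 at morula to early ICM in Oct4 Ctrl and 4 higher and 50 lower in Sox2 Ctrl (median −0.93), where most members rose. From early to late ICM they had 2 higher and 40 lower in Oct4 Ctrl (median −0.62), and 1 higher and 2 lower in Sox2 Ctrl. In Oct4-KO late ICMs 4 were higher and 17 lower, led by Rrp1b (−1.31) and Rpf2 (−1.08) below and Sbds (0.89) and Nop10 (0.83) above, and Sox2-KO late ICMs had 2 above and 10 below. Of 14 genes of RNA polymerase I, which transcribes ribosomal RNA, 8 were lower and none higher in Oct4-KO late ICMs (median −0.54), with Twistnb at −0.85 and Polr1a at −0.78, and in Sox2-KO 1 was higher and 4 were lower. Over the stages the same 14 had 5 higher and 5 lower and then 1 higher and 7 lower in Oct4 Ctrl, and 2 higher and 7 lower and then 1 higher and 1 lower in Sox2 Ctrl.

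A list of translation factors and other genes whose messages also begin with a TOP motif had 9 higher and 2 lower of 15 at morula to early ICM in Oct4 Ctrl, where most members fell, and 7 higher and 4 lower in Sox2 Ctrl. At early to late ICM the list had 6 higher and 5 lower in Oct4 Ctrl and none called in Sox2 Ctrl by edgeR. In Oct4-KO late ICMs 1 was higher and 4 lower, the RNA-binding splicing regulator Hnrnpa1 at −0.63 and the nucleolar chaperone Npm1 at −0.44 being the lowest and the initiation factor subunit Eif3h (0.28) the one that rose, and in Sox2-KO 2 were higher. Initiation and release factors had 8 higher and 6 lower of 33 in Oct4-KO late ICMs, from Eif5a (0.88) to Eif4ebp1 (−0.86), and 3 higher and 2 lower in Sox2-KO. At the stage steps they had 6 higher and 14 lower and then 3 higher and 13 lower in Oct4 Ctrl, and 3 higher and 19 lower and then 1 higher and 6 lower in Sox2 Ctrl. Among 15 genes that control ribosomal protein synthesis, 2 were higher and 4 lower in Oct4-KO late ICMs, with Mycn at 1.07, Mtor at −0.84 and Mycl at −2.05, and 4 were lower in Sox2-KO. At the stage steps that list had 4 higher and 5 lower, then 3 and 3, in Oct4 Ctrl, and 4 higher and 4 lower, then 1 higher and none lower, in Sox2 Ctrl.

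Ribosomal protein genes outside the name rule were counted separately. Of 10 tested none was higher and 5 were lower at morula to early ICM in Oct4 Ctrl, then 7 higher and 1 lower, and in Sox2 Ctrl 6 higher and 1 lower, then 1 and 1. Fau, which encodes a ubiquitin-like protein fused to a small-subunit protein, had −0.68 and 0.89 in Oct4 Ctrl and 0.55 at the first step in Sox2 Ctrl, and Rps27l had −1.04, 1.12 and 0.85. In late ICMs none of the 10 was called in Oct4-KO by edgeR and 1 was higher in Sox2-KO. Mitochondrial ribosomal proteins had 18 higher and 28 lower of 77 and then 20 and 23 in Oct4 Ctrl, 22 and 20 and then 1 and 2 in Sox2 Ctrl, 15 higher and 12 lower in Oct4-KO late ICMs and 1 higher against 7 lower in those of Sox2-KO. Proteasome subunits had 19 higher and 5 lower of 38 and then 1 and 24 in Oct4 Ctrl, 6 and 17 and then none and 4 in Sox2 Ctrl, and 13 higher and none lower in Oct4-KO late ICMs against none called in Sox2-KO.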

How the data were processed

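Transcripts of 123 single morulae or ICMs were measured as UMI counts per gene. Per the submitters' processing notes and the study's methods, UMIs were extracted with UMI-tools, reads trimmed with cutadapt, aligned to mm10 with TopHat2, assigned to genes with featureCounts and UMIs counted after correction for PCR artefacts and lost UMIs. The count table deposited by the authors holds these UMI counts per gene and embryo, and a second table deposited by the authors holds regularized log2 values (rlog) made with DESeq2. How multiply mapped reads were treated is not given in the sources used here. All 123 value columns of each table were matched to a sample by label, and 0 were left over.

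Counts were fitted with edgeR 4.0.16 (glmQLFit and glmQLFTest, TMM factors, 1 coefficient per group) in R 4.3.3. The 96 Ctrl and KO embryos in 12 groups shared 1 fit (14053 genes), and comparisons with MWT used all 123 embryos in 16 groups (13923 genes). Genes with a UMI in a share of 0.5 or more of any stage's embryos were tested, and called at a Benjamini-Hochberg adjusted p under 0.05, counted again with a log2 change of 1 or more in either direction. CPM are counts scaled to the embryo's total UMIs. Alternatives included RLE and total-UMI scaling, TMM factors without members, no filter, DESeq2 1.42.0, limma 3.58.1 on rlog values, thinned counts, replicate blocks and leave-one-out fits. Scripts were tested on simulated data. No embryos of a group had counts within sampling noise of each other (416 pairs, lowest chi-square per gene 1.97). Counts give precision for counting error only.

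The members and all gene lists were chosen with earlier results of these data known. Named members were the 5 highest and 5 lowest in Ctrl, the 2 highest and 2 lowest log2 fold changes among those called in each ICM knockout comparison and Ctrl step, those past a 2-fold change, the 2 with the lowest adjusted p in each difference of KO effects, and members with a set role (stalk, paralogues and their parents and others). Of other lists, the 2 highest and 2 lowest called genes in Oct4-KO late ICM were named. Rps3a1, Rps7, Rps10, Rps18, Rpl34, Rpl35a, Rpl31, Rpl15, Rpl36a, Rps27l and Fau were named after their values were seen. Stage steps of KO and MWT embryos, direct comparisons of the lines, the label sets and the term for Y-linked transcripts were added after the first comparisons. Some members that meet these rules are not reported here by name, but they stay in every count.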

Additional observations from a re-analysis of the deposited data

Results flagged for a closer look

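Rps23, Rpl39l, Rpl22l1, Rpl10, Rplp1 and Rps2, the members' share of UMIs and the subunit ratio were searched in every group of 4 to 10 embryos for an embryo far from its neighbours, 128 searches in all, and chance alone flags about 1 in 20 of them. The search gave 2. One Sox2-KO late ICM had 806 CPM of Rpl39l, where the next embryo of its group had 422 CPM. One Sox2 MWT early ICM had a ratio of large to small subunit UMIs of 1.46, where the next had 1.37.

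Differences between the lines were tested as differences of effects. The Oct4-KO and Sox2-KO effects differed for 2 members in late ICMs, Rps20 among them. The morula to early ICM step of Ctrl embryos differed between the lines for 59 members and the early to late ICM step for 41. The part of collection and library preparation, which go with the line, cannot be told apart from that of the line.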

How the results depend on the processing

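Alternatives left counts of members within 1.5 times and medians within their spread in 680 cases outside the leave-one-out refits, and 56 moved further. Scaling by RLE factors, limma on the rlog table, all embryos in 1 fit, a term for the set and a term for Y-linked transcripts moved none. Scaling by total UMIs gave 5 members past the threshold in Oct4-KO early ICM, 13 in late ICM (3 higher, 10 lower), 1 in Sox2-KO early and 1 in late ICM (median 0.0739), 16 in Oct4 MWT late ICM, 1 for the KO-effect difference in early ICM and 9 between Ctrl late ICMs of the lines (4 higher, 5 lower), and medians at morula to early ICM of −0.17 in Oct4 Ctrl, −0.16 in Oct4-KO and −0.15 in Oct4 MWT. With no detection filter the counts were 3, 3, 0 and 4 for Oct4-KO morula and early ICM and Sox2-KO early and late ICM, 6 and 3 for early to late ICM in Sox2 Ctrl and Sox2-KO, 0 for the late KO-effect difference and 3 between Ctrl late ICMs. DESeq2 gave 16 in Oct4-KO early ICM, thinned counts 1 in Sox2-KO early ICM and 7 in Sox2-KO early to late ICM, and TMM factors from the other genes 1 for the late KO-effect difference. Members without a named pseudogene had medians of 0.12 for Oct4 Ctrl early to late ICM and 0.14 for Sox2 Ctrl morula to early ICM.

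With late ICMs of set 1 alone the counts were 0 in Sox2-KO, 49 in Oct4 MWT, 0 for the KO-effect difference, 6 for Sox2-KO early to late ICM and 8 between Ctrl groups (8 higher, 0 lower), medians were 0.46, 0.40 and 0.35 for early to late ICM in Oct4 Ctrl, Oct4-KO and the line difference, and 1 member passed a 2-fold change in Oct4-KO and 1 in Oct4 MWT. With set 2 alone the counts were 0 in Oct4 MWT, 0 for the KO-effect difference, 25 for the line difference of steps (16 positive, 9 negative) and 9 between Ctrl groups (0 higher, 9 lower), medians were 0.0362, 0.0382, 0.0024, −0.14 and −0.000290 for Oct4 Ctrl and Oct4-KO early to late ICM, the line difference, Ctrl groups and Oct4 MWT, and 1 and 2 members passed a 2-fold change in Oct4-KO and Oct4 Ctrl early to late ICM. Signs turned for Rpl41 in Oct4 Ctrl early to late ICM (−0.0690) and for Rpl22 (0.0470) and Rpl36 (0.0222) in Oct4 MWT late ICM. The cause was not tested.

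Whether same-numbered Ctrl and KO embryos share more than a number is not given in the labels, and their correlations ran from −0.07 to 0.20. A replicate block over them gave 7 members in Oct4-KO morula (median 0.0198), 3 in early ICM (0 higher, 3 lower, median −0.0341, with Rps2 turned to −0.15), 2 in Sox2-KO early ICM and 11 in Sox2-KO late ICM. In the same embryos with no replicate block the counts were 3 (1 higher, 2 lower, median 0.0190), 3 (0 higher, 3 lower, median −0.0301, Rps2 −0.16), 0 and 1. The part of the smaller number of embryos in these changes was not tested. The block could not be fitted in Oct4 late ICM, with 1 shared number, and Sox2 morula, with none.

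Leaving out 1 embryo at a time, with the dispersion trend of all embryos kept, gave 5 to 17 members in Oct4-KO early ICM (5 without KO embryo 11, 6 without KO embryo 14 or 17, 17 without KO embryo 1), 4 to 13 in Oct4-KO late ICM (13 without Ctrl embryo 1-9, 11 and 10 without KO embryos 2-7 and 2-2), 1 to 6 in Sox2-KO early ICM (1 without each of Ctrl embryos 2, 5 and 9 and KO embryos 8, 10, 11, 17 and 21) and 6 to 20 in Sox2-KO late ICM (6 without KO embryo 1-1, 7 without KO embryo 2-3 or Ctrl embryo 2-1 or 2-4, 9 without Ctrl embryo 2-6). Medians were 0.08 to 0.17, −0.02 to 0.07, 0.12 to 0.18 and 0.14 to 0.22. Rpl22l1 in Oct4-KO late ICM stayed between −0.92 and −0.75 and past the threshold in all 16 refits, and Rpl10 (0.51 to 0.82) lost its call in 5 and Rpl21 in 6. Of the other members named, Rps2 lost its call in 11 refits, Rps28 in 9 and Rpl22l1 in 2 in Oct4-KO early ICM, Rps24 in 8 in Sox2-KO early ICM, and Rps19 in 10, Rpl3 and Rplp0 in 7 each and Rpl21 in 6 in Sox2-KO late ICM. Oct4 MWT early ICM gave 0 throughout (edgeR).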

Other observations

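Rows named as pseudogenes of members took 0.332% of all UMIs over 233 rows, and 1 of them, Rps3a3, held 117024 UMIs, 32.2% of that total. Its level was not graded like that of the members. In 9 embryos Rps3a3 lay between 3.56 and 26.1 CPM, and in the others between 445 and 2062 CPM, with no embryo in between. The low embryos were 1 Oct4 Ctrl early ICM, 3 Oct4 MWT late ICMs, 1 Sox2 Ctrl morula, 1 Sox2-KO morula, 1 Sox2 Ctrl early ICM and 2 Sox2 MWT early ICMs. The parent gene Rps3a1 had no such gap and ran from 892 to 3396 CPM. In Oct4 MWT late ICMs the low embryos had 1543, 1713 and 1892 CPM of Rps3a1 and the others 1033 to 1765 CPM. In the other groups with low embryos, these lay above all the rest of their group in Rps3a1. The labels give no genotype at this locus, and the cause of the gap was not tested.

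Rps4l, a row named after the X-linked Rps4x, held 13.3% of the UMIs of these rows.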
